A study of Mus musculus with 30 samples.

Results

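Phagocytosis ends in the lysosome, where the material taken up is digested. The genes described here are 50 genes of lysosomal hydrolases and lysosomal membrane proteins. They were taken by symbol from a fixed list that uses no measured value in its rule, and each of the 50 symbols matched a row among the 55573 genes of the deposited RPE and bone marrow-derived macrophage (BMDM) tables. By role they comprised 12 proteases, 11 glycosidases, 5 sulfatases, 9 lipid hydrolases and lipid carriers, 9 membrane proteins, 2 acid phosphatases and a pair made of the secreted lysosomal glycoprotein Grn and the transcription factor Tfeb. Polyadenylated RNA had been sequenced from the RPE of mice at postnatal day 25 (P25), used directly ex vivo, and from BMDMs grown from the marrow of adult mice for 7 days in medium conditioned by L929 cells. The RPE series held 6 libraries each of B6 WT and Mertk-/-V1 and 3 each of Mertk-/-V2 and Mertk-/-V3, and the BMDM series held 3 libraries of each of the 4 genotypes, 30 libraries in all. Every mouse carried the strain label C57BL/6J (B6). The Mertk-/-V1 allele lacks exon 17, was targeted in 129P2/OlaHsd embryonic stem cells and was then backcrossed to B6. By the paper's microsatellite typing, Mertk-/-V1 mice still carry a segment of 129P2/OlaHsd origin around Mertk on chromosome 2. The Mertk-/-V2 allele lacks exon 18, removed with a tamoxifen-inducible Cre from a floxed line of C57BL/6NJ origin, and the Mertk-/-V3 allele lacks exons 3 and 4, deleted with CRISPR/Cas9 in C57BL/6NJ eggs. By the study's methods both of these lines carry a mixture of C57BL/6J and C57BL/6NJ genome. The labels call the libraries biological replicates without saying which mice they came from, so that the p-values below measure the spread between these samples.

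MERTK is the receptor tyrosine kinase with which the RPE, the pigmented epithelium behind the photoreceptors, engulfs the shed tips of photoreceptor outer segments each day, and with which macrophages engulf apoptotic cells. In both cell types the phagosome fuses with lysosomes, whose acid hydrolases cut proteins, sugar chains, sulfate esters and lipids. Membrane proteins such as LAMP1 line the organelle, and others carry ions and products across its wall. TFEB, the master transcription factor of lysosomal genes, binds promoters of many of these genes at a short palindrome, the CACGTG core of the CLEAR motif.

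To show which members carry these letters, the window from 250 bases before to 50 bases after the annotated start was searched in the RefSeq promoters of GRCm38.p6, which held 45 of the 50 genes. The 6 letters CACGTG, which read the same on both strands, were in 14 of the 45 windows (31.1%) and in 2187 of 27025 promoters of all genes (8.09%). The longer form GTCACGTG, searched on both strands and always containing the shorter one, was in 11 of 45 (24.4%) against 689 of 27025 (2.55%). A match is a stretch of letters and not a measured binding site. The windows below belong to 7 of those 11 genes, shown because their expression is described further on, and each is 30 bases on the gene's own strand, 5′ to 3′, with CACGTG in capitals.
Sgsh: gggcctgccgtgCACGTGaccgtggggagc
Mcoln1: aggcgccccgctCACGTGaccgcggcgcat
Lamp1: gatgccgactggCACGTGaccacatcacgt
Ctsd: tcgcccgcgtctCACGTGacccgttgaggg
Lgmn: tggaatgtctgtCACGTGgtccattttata
Ctsa: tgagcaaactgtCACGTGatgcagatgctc
Naglu: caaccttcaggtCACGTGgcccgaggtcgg
The Sgsh stretch lies at chr11:119355522-119355551 on the minus strand and the Mcoln1 stretch at chr8:3500462-3500491 on the plus strand. That of Lamp1 is at chr8:13159121-13159150 (plus), that of Ctsd at chr7:142387908-142387937 (minus), that of Lgmn at chr12:102439124-102439153 (minus), that of Ctsa at chr2:164833749-164833778 (plus) and that of Naglu at chr11:101070009-101070038 (plus). CACGTG was not among the letters of the Ctss, Laptm5 and Pla2g15 windows.

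Libraries held 14137666 to 34124049 reads on genes in RPE and 16629659 to 25653814 in BMDMs. The deposited values are read counts divided by a size factor per library, called normalized counts here, and 3 reads corresponded to at most 5.55 normalized counts. Mertk itself ran from 2638 to 3924 in B6 WT RPE, from 919 to 1717 in Mertk-/-V1 and from 444 to 1106 in Mertk-/-V3. In Mertk-/-V2 RPE it ran from 3565 to 5311, and a gene-level count does not check the deletion of a single exon. In RPE, 3 libraries stood apart in composition: in Mertk-/-V1 replicates 5 and 6 and Mertk-/-V3 replicate 1, 8 RPE marker genes summed to 185044 to 270785 normalized counts against 416465 to 852617 in the other 15, and rod photoreceptor markers summed to 381087 to 809674 against 29783 to 313550. The main RPE values are therefore also given without these 3 libraries, a setting that was added after the data had been seen. None of the 50 genes was at 0 in any library, and all 50 passed the filter of a mean of at least 10 normalized counts in both tissues.

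The lysosomal genes were, for the most part, more abundant in BMDMs than in RPE. Levels per gene length, as RPKM (reads scaled to gene length and library size), put 41 of the 50 higher in B6 WT BMDMs and 9 higher in B6 WT RPE. All 3 BMDM libraries lay above all 6 RPE libraries for 39 members (background over all genes expressed: 31.2%), all RPE libraries lay above all BMDM libraries for 8 (background 51.0%), and Gm2a, Lamp2 and Scarb2 overlapped. The median RPE to BMDM difference of the 50 was −1.36 on the log2 scale, where that of all genes was 0.58. The tissues were normalized and collected separately, so that tissue and preparation cannot be told apart and no test is given. Nor can fewer cells of a type and less RNA per cell be told apart in bulk samples such as these.

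**Figure D1:**
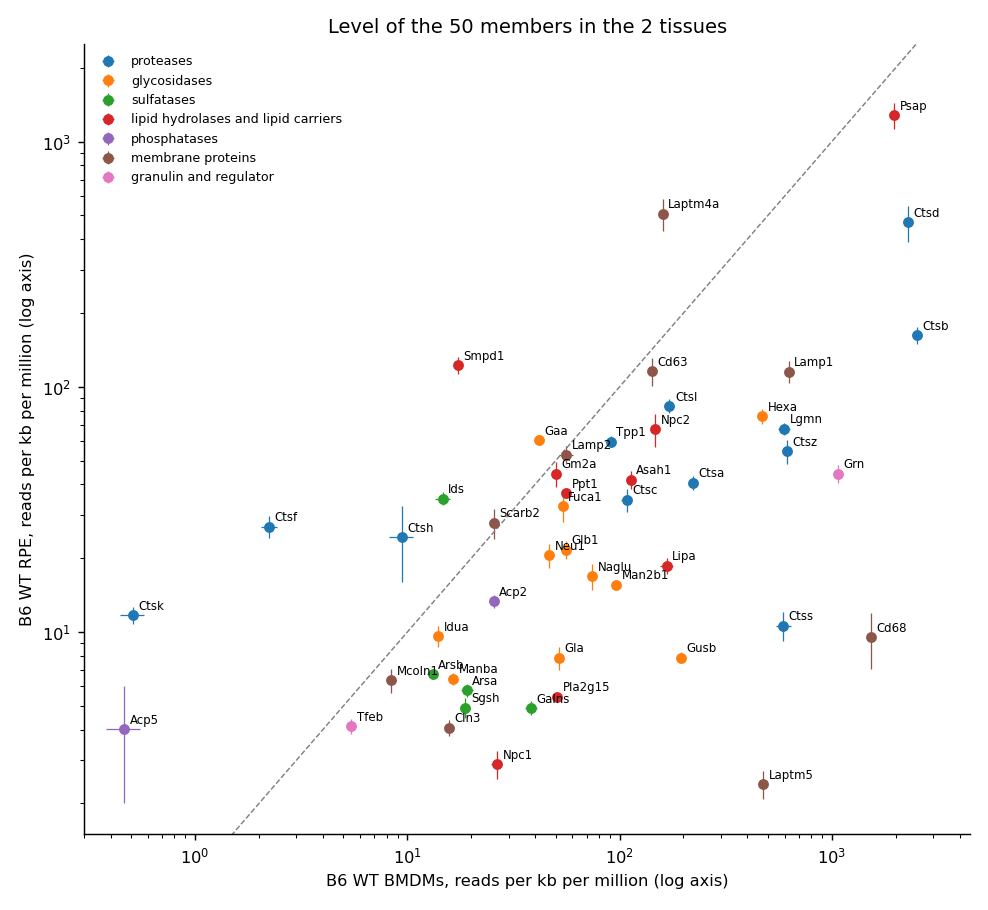
Level of each of the 50 genes in B6 WT BMDMs (x axis) and B6 WT RPE (y axis), both in RPKM on log axes, with points at the mean, bars of 1 SD over 6 RPE and 3 BMDM libraries, colours for roles and a dashed line of equal level. Of the 50 genes, 41 lie below the line, with Laptm5, Cd68 and Ctss farthest from it, and Ctsk, Ctsf and Acp5 lie farthest above it.

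The 3 members with the greatest excess in BMDMs are genes known from blood and immune cells. Laptm5, a lysosomal transmembrane protein of blood cells, was at 2.40 ± 0.304 RPKM in RPE (SD, n = 6) and 476 ± 14.6 in BMDMs (SD, n = 3), a 199-fold ratio. Cd68, the macrophage glycoprotein macrosialin, was at 9.53 ± 2.46 and 1534 ± 17, a 161-fold ratio. Ctss, the cysteine protease that trims the invariant chain in antigen-presenting cells, was at 10.6 ± 1.45 and 592 ± 47.4, a 55.8-fold ratio. These 3 genes thus lay below most other members in RPE and were among the abundant ones in BMDMs. Gusb, the beta-glucuronidase, and Grn, the precursor of the granulins, followed with 24.8-fold and 24.1-fold ratios.

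On the other side, Ctsk, the collagen-degrading cathepsin known from osteoclasts, was at 11.7 ± 0.918 RPKM in RPE and 0.508 ± 0.0657 in BMDMs, 23.0-fold higher in RPE. Ctsf, another cysteine protease, was 12.1-fold higher in RPE, and Acp5, the tartrate-resistant acid phosphatase, was 8.66-fold higher, with 4.01 ± 2.00 against 0.464 ± 0.0848. Smpd1, the acid sphingomyelinase, was at 123 ± 9.97 in RPE and 17.3 ± 0.519 in BMDMs, and Laptm4a, a small lysosomal membrane protein, at 508 ± 74.5 and 160 ± 5.57. By role, 9 of 12 proteases, 10 of 11 glycosidases, 4 of 5 sulfatases, 8 of 9 lipid genes, 7 of 9 membrane proteins and 1 of 2 phosphatases were higher in BMDMs.

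Each tissue put most of its lysosomal reads on a handful of genes. In B6 WT RPE, Psap, the precursor of the saposins that help degrade sphingolipids, took 27.6% of the reads on the 50 genes, and with Ctsd, Ctsb, Laptm4a and Ctsl it made up 55.3%. In B6 WT BMDMs the cysteine protease Ctsb took 29.9%, and with Ctsd, Psap, Grn and Cd68 it made up 62.2%. Per gene length, Psap ranked highest of the members in RPE at 1282 ± 160 RPKM, and Ctsb ranked highest in BMDMs at 2507 ± 117. The aspartic protease Ctsd, which is needed to degrade outer segments in the RPE, was at 469 ± 78.0 in RPE and 2296 ± 88.9 in BMDMs.

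In Mertk-/-V1 RPE, 2 of the 50 genes rose against B6 WT and none fell. Both were the macrophage-rich members Laptm5 and Ctss, each close to a doubling, whereas Psap, Ctsd, Lamp1 and the glycosidases gave differences that did not pass the test. The test was limma's moderated test on log2(normalized count + 1) over 18832 genes, with a call at a Benjamini-Hochberg adjusted p under 0.05, by which 0.388% of all genes were called. At an unadjusted p under 0.05 there were 9 members (18%), where all genes gave 6.81%.

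The Ctss values ran from 330 through a median of 366 to 481 normalized counts in B6 WT RPE and from 513 through 762 to 1379 in Mertk-/-V1, so that the 2 groups did not overlap. The means were 379 ± 52.3 and 828 ± 290 (SD, n = 6 each). The log2 difference was 1.07 (SE 0.18, 95% interval 0.69 to 1.46), a 2.10-fold increase, with an adjusted p of 0.00977. Ctss lies at chr3:95526786-95556403 of GRCm38 (ENSMUSG00000038642), and its span also holds the processed pseudogene Hmgb1-ps5 on the same strand.

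Laptm5 ran from 201 through a median of 228 to 276 normalized counts in B6 WT RPE and from 390 through 439 to 650 in Mertk-/-V1, again without overlap. Means of 239 ± 29.7 and 472 ± 96.6 (SD, n = 6 each) gave a log2 difference of 0.97 (SE 0.14, 95% interval 0.66 to 1.27), a 1.96-fold increase, with an adjusted p of 0.00384. The gene lies at chr4:130913125-130936141 (ENSMUSG00000028581). Leaving out any of the 12 libraries kept both calls, with log2 differences of 0.91 to 1.20 for Ctss and 0.87 to 1.02 for Laptm5. Neither reached the fold threshold that the study's methods add to the p-value.

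Cd68, at chr11:69664213-69666153 (ENSMUSG00000018774), ran from 223 through 329 to 428 in B6 WT and from 349 through 440 to 498 in Mertk-/-V1, and these ranges overlapped. Its log2 difference of 0.50 (SE 0.15, 95% interval 0.18 to 0.82) did not pass, with an adjusted p of 0.317. The remaining members with sizeable differences lay below 0. Psap ran from 77820 through 92910 to 109692 in B6 WT and from 41734 through 73658 to 86668 in Mertk-/-V1, a log2 difference of −0.48 (SE 0.21, adjusted p = 0.69). Ctsc, the dipeptidyl peptidase that activates granule proteases, ran from 4635 through 5331 to 5843 and from 2325 through 4428 to 5231, a difference of −0.43 (SE 0.18, adjusted p = 0.672). Without the 3 libraries of low RPE marker counts Psap differed by −0.22 and Ctsc by −0.13.

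The rise of Ctss and Laptm5 stood beside differences in markers of macrophages and microglia. Of 10 such markers, 4 were called higher in Mertk-/-V1 RPE and 9 lay above 0, with a median log2 difference of 0.89. C1qa, a complement subunit made by macrophages and microglia, ran from 160 to 298 in B6 WT and from 303 to 790 in Mertk-/-V1, and Fcer1g, an Fc receptor signalling chain, from 53.7 to 77.7 and from 116 to 152. C1qb and C1qc were called too, with log2 differences of 1.02 and 1.11. Csf1r, the macrophage growth factor receptor, did not follow, with a difference of −0.42, and Itgam gave 0.06. The summed marker level was 7575 to 12201 normalized counts in B6 WT and 6817 to 11258 in Mertk-/-V1, and no marker was at 0 in either group. C1qa and Fcer1g, at most 790 and 152, are a small part of that sum, which mostly follows other markers. Its lowest Mertk-/-V1 values, 6817 and 7262, were those of replicates 5 and 6, libraries of low RPE marker counts. The part of macrophages in the Ctss and Laptm5 values was not tested.

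**Figure D2:**
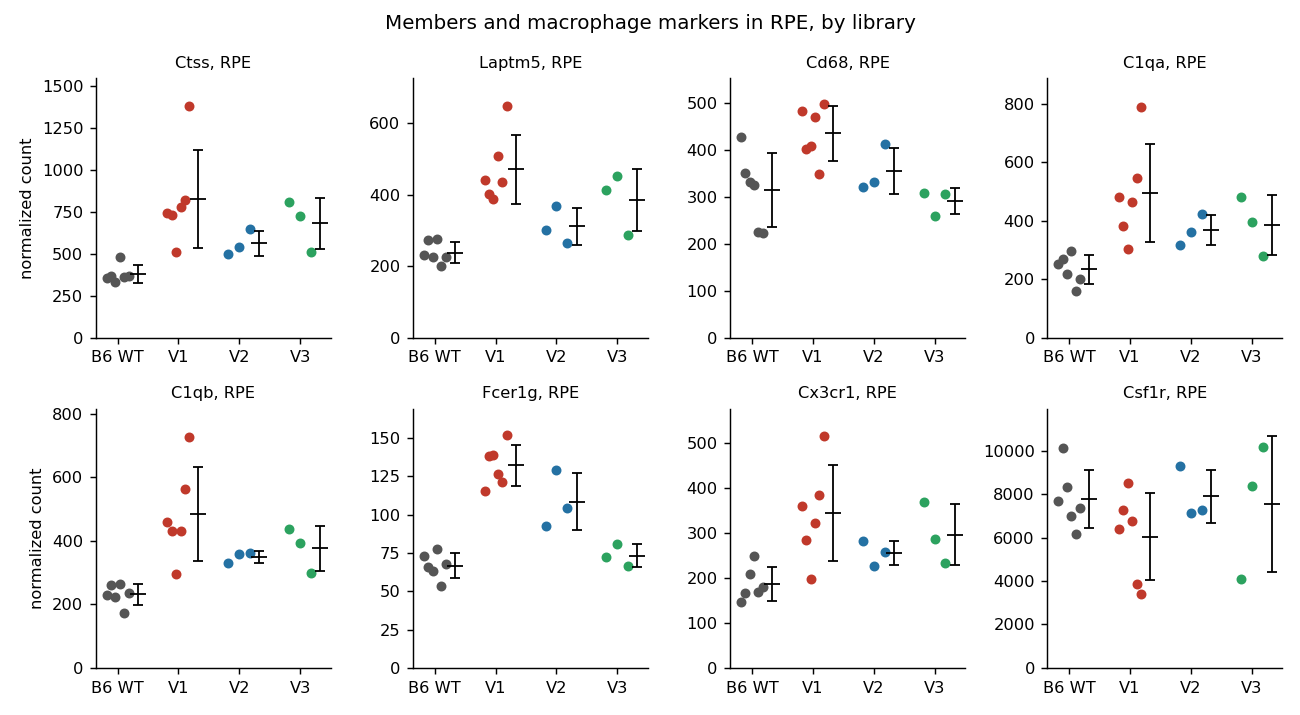
Normalized counts per library (y axis of each panel, points) with the mean and 1 SD in RPE of B6 WT and of the V1, V2 and V3 knockouts for the members Ctss, Laptm5 and Cd68 and the macrophage markers C1qa, C1qb, Fcer1g, Cx3cr1 and Csf1r. In Ctss and Laptm5 every Mertk-/-V1 point lies above every B6 WT point, whereas the Cd68 and Csf1r ranges overlap.

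Libraries also differed in their RPE marker counts. The 8 RPE markers had a median log2 difference of −0.67 in Mertk-/-V1, with 7 of 8 below 0 and 0 called by limma. Without the 3 libraries of low RPE marker counts, Ctss kept a log2 difference of 0.86 and Laptm5 one of 0.87, both with an adjusted p of 0.0148, and these were again the 2 called members. B6 WT and Mertk-/-V1 replicates 1 to 3 and 4 to 6 were also compared separately. Ctss differed by 0.89 in replicates 1 to 3 (adjusted p = 0.119) and by 1.26 in replicates 4 to 6 (adjusted p = 0.557), and Laptm5 by 0.76 (adjusted p = 0.0801) and 1.18 (adjusted p = 0.557). In these smaller sets the direction was the same and the calls were lost. When the model held the replicate set as a further term, both were called, with adjusted p of 0.00321 for Ctss and 0.00303 for Laptm5.

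The 2 other knockout alleles gave means of Ctss and Laptm5 between those of B6 WT and Mertk-/-V1 and no call by limma as described. The Ctss ranges of both alleles and the Laptm5 range of Mertk-/-V3 overlapped those of Mertk-/-V1. Ctss was at 501, 541 and 647 normalized counts in the 3 Mertk-/-V2 libraries, all above the B6 WT range, a log2 difference of 0.57 (SE 0.22, adjusted p = 0.84). In the Mertk-/-V3 libraries it was at 809, 727 and 512, also above the B6 WT range, a difference of 0.83 (SE 0.22, 95% interval 0.36 to 1.31, adjusted p = 0.422). Laptm5 was at 301, 369 and 266 in Mertk-/-V2, where the lowest value fell inside the B6 WT range, with a difference of 0.38 (SE 0.18, adjusted p = 0.909). In Mertk-/-V3 it was at 413, 454 and 287, a difference of 0.67 (SE 0.18, 95% interval 0.29 to 1.04, adjusted p = 0.417). Both genes were called in Mertk-/-V3 with the replicate block or array weights and in Mertk-/-V2 with array weights. The 10 macrophage markers had median differences of 0.61 in Mertk-/-V2 and 0.55 in Mertk-/-V3 with none called, among them Tyrobp at 0.90 and 0.64 and C1qc at 0.75 and 0.77, and their part was not tested. Each knockout was compared with the same B6 WT libraries, so these 3 sets of differences are not independent of one another.

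Across the 50 genes, Mertk-/-V2 RPE had 0 calls by limma (4 at an unadjusted p under 0.05, and 0 by edgeR and DESeq2), against 0.0690% of all genes called. Mertk-/-V3 RPE likewise had 0 calls (2 at an unadjusted p under 0.05, and 0 by edgeR and DESeq2), against 0.0690%. Of the members farthest from B6 WT in Mertk-/-V2, Ctsk was at 655, 595 and 932 normalized counts where B6 WT ran from 421 through 462 to 523, a log2 difference of 0.62 (SE 0.24, adjusted p = 0.827). Cd63, a tetraspanin of late endosomes, was at 14405, 13242 and 14059 against 8922 through 11546 to 12583, a difference of 0.32 (SE 0.27, adjusted p = 0.964). Acp5 was at 128, 125 and 219 against 94.4 through 213 to 354, inside the B6 WT range, a difference of −0.32 (SE 0.46, adjusted p = 0.999).

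In Mertk-/-V3 RPE, Acp5 was at 124, 127 and 134, also inside the B6 WT range, with a log2 difference of −0.56 (SE 0.46, adjusted p = 0.599). Ctsh, a cysteine protease with aminopeptidase activity, was at 2561, 1514 and 1946 against 1794 through 2941 to 4473, a difference of −0.48 (SE 0.34, adjusted p = 0.551). Ctsd was at 13677, 22006 and 30440 against 21832 through 30445 to 34764, a difference of −0.45 (SE 0.26, adjusted p = 0.475). Without the 3 libraries of low RPE marker counts Ctsd differed by −0.14 and Ctsh by −0.67. The low value in Ctsd is one of those libraries, which was the lowest of its group for 40 of the 50 members, while replicate 3 was the highest for 42.

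Read by role, the Mertk-/-V1 differences of the glycosidases, which trim sugars from glycoproteins, glycolipids and glycosaminoglycans, were small and alike in sign. All 11 lay below 0, from −0.31 to −0.02 with a median of −0.22 on the log2 scale, and none passed the test. In most of them, the lowest Mertk-/-V1 values were those of replicates 5 and 6, libraries of low RPE marker counts. The medians were −0.13 for proteases (8 of 12 below 0), −0.08 for sulfatases (3 of 5), −0.15 for lipid genes (7 of 9), −0.06 for membrane proteins (6 of 9) and −0.24 for phosphatases (2 of 2). Over the 50 genes the median was −0.15 with 38 below 0, where all genes had a median of 0.02. Without the 3 libraries of low RPE marker counts, the median was −0.01 with 27 below 0. It was −0.03 with 27 below 0 in replicates 1 to 3 and −0.23 with 39 below 0 in replicates 4 to 6.

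The other alleles gave medians of 0.06 in Mertk-/-V2 RPE, with 14 of 50 below 0, and of −0.09 in Mertk-/-V3, with 36 below 0. The Mertk-/-V3 median became 0.06 with 19 below 0 when replicate 1, the library of low RPE marker counts, was left out with the 2 Mertk-/-V1 libraries. Most members were measured closely enough to bound a change: the 95% interval lay within ±1 on the log2 scale for 47 genes in Mertk-/-V1, the same number in Mertk-/-V2, and 46 genes in Mertk-/-V3. The median SE was 0.13 for Mertk-/-V1 and 0.16 for each of the other alleles.

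**Figure D3:**
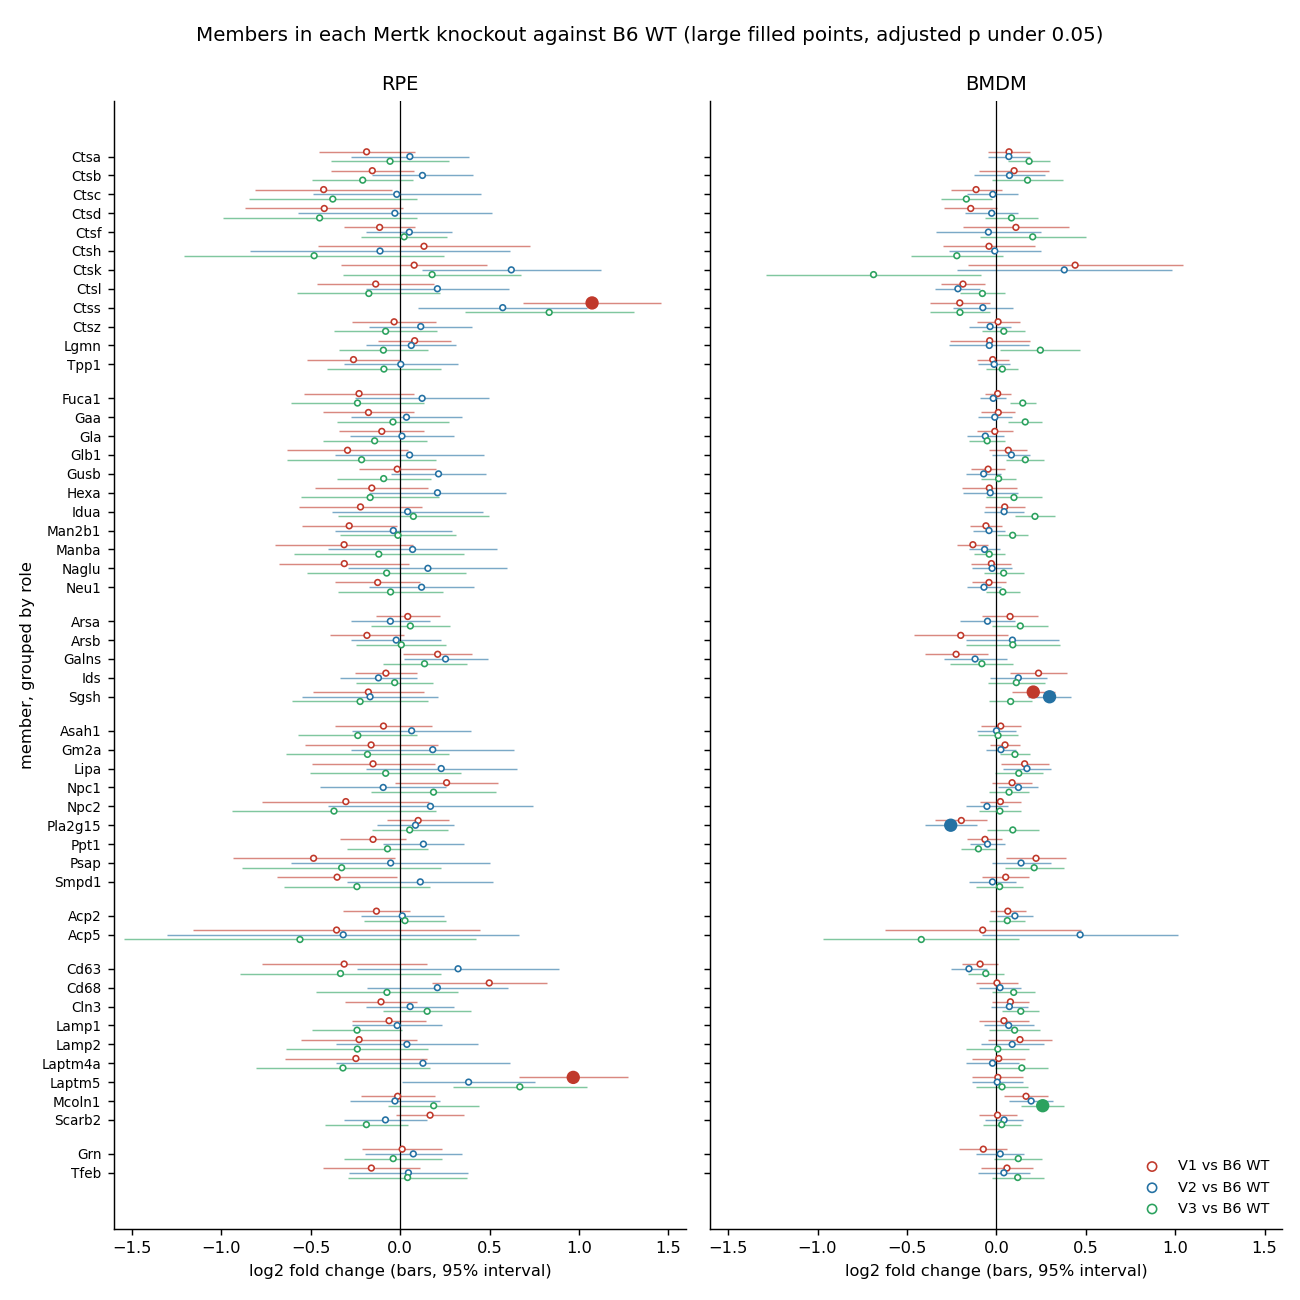
Difference from B6 WT on the log2 scale (x axis) with 95% intervals for each of the 50 genes (y axis, grouped by role) in each of the 3 knockouts, in RPE and in BMDMs. Large filled points have an adjusted p under 0.05. Ctss and Laptm5 in Mertk-/-V1 are the 2 large points of the RPE panel, and Sgsh, Pla2g15 and Mcoln1 carry those of the BMDM panel, where the intervals are narrower.

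Mertk-/-V1 RPE was also set against the mean of the other knockouts, which compares the line made in 129P2/OlaHsd cells with the lines of C57BL/6NJ origin. None of the 50 genes was called by limma or by edgeR and DESeq2, with 4 at an unadjusted p under 0.05, against 0.207% of all genes called. Laptm5 differed by 0.44 on the log2 scale (SE 0.14, adjusted p = 0.389), from a mean of 348 ± 75.5 in the 6 libraries of the other alleles to 472 ± 96.6. Cd68 differed by 0.43 (SE 0.15, adjusted p = 0.411), Ctsh by 0.43 (SE 0.28, adjusted p = 0.628) and Ctss by 0.37 (SE 0.18, adjusted p = 0.54). Naglu, a heparan sulfate-degrading glycosidase, ran from 660 through 1066 to 1217 in Mertk-/-V1, with a mean of 971 ± 239 against 1231 ± 248, a difference of −0.35 (SE 0.17, adjusted p = 0.536). Without the 3 libraries of low RPE marker counts 701 genes and none of the 50 were called, with Ctsh at 0.87 (adjusted p = 0.0575), Cd68 at 0.48, Laptm5 at 0.37, Ctss at 0.22 and Naglu at −0.24. For Ctss and Laptm5, then, the rise called against B6 WT was not called against the other alleles.

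The share of all reads on genes that fell on the 50 members summarises these values by library. It ran from 1.21% to 1.33% in B6 WT RPE, from 0.861% to 1.28% in Mertk-/-V1, from 1.28% to 1.39% in Mertk-/-V2 and from 0.887% to 1.45% in Mertk-/-V3. The means were 1.28 ± 0.0445, 1.11 ± 0.172, 1.33 ± 0.0577 and 1.18 ± 0.282 (SD, n = 6, 6, 3 and 3). The lowest shares, 0.861%, 0.923% and 0.887%, belonged to the 3 libraries in which the 8 RPE markers took 0.946%, 0.812% and 1.13% of reads, against 1.74% to 3.11% elsewhere.

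**Figure D4:**
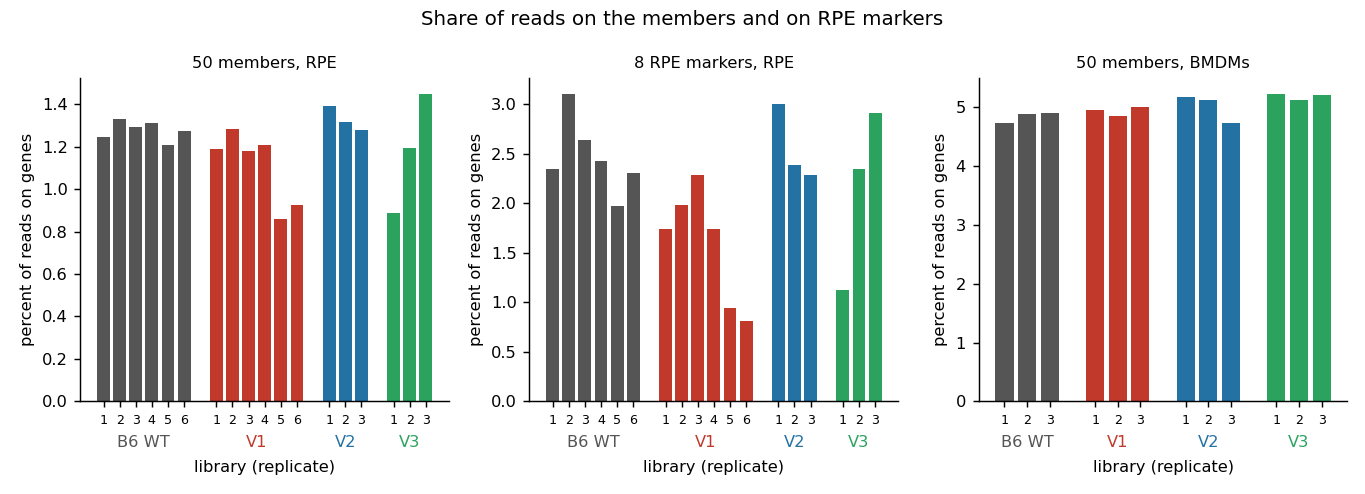
Percent of reads on genes (y axis, bars from 0) in each library (x axis, by genotype and replicate) that fell on the 50 lysosomal genes in RPE, on 8 RPE marker genes in RPE, and on the 50 lysosomal genes in BMDMs. The 3 RPE libraries with the shortest RPE marker bars also have the 3 shortest bars for the lysosomal genes, and the BMDM bars lie between 4.73% and 5.23%.

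The BMDM libraries had the following spread between replicates: the median coefficient of variation of the 50 genes was 3.86% in B6 WT and 3.27%, 7.56% and 2.14% in the V1, V2 and V3 knockouts, against 8.06%, 19.0%, 6.74% and 23.3% in the same genotypes in RPE. The 50 genes took 4.73% to 4.90% of reads in B6 WT BMDMs and 4.84% to 5.00% in Mertk-/-V1. They took 4.73% to 5.17% in Mertk-/-V2 and 5.12% to 5.23% in Mertk-/-V3. The RPE markers summed to at most 43.5 normalized counts in any BMDM library. Differences between genotypes were small in these cells, with 3 members called and none of these changed by more than 1.23-fold.

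In Mertk-/-V1 BMDMs Sgsh rose and no other member passed. Sgsh, the sulfamidase that removes N-linked sulfate from heparan sulfate, was at 1654, 1511 and 1671 normalized counts in B6 WT and at 1951, 1863 and 1767 in Mertk-/-V1, without overlap. The log2 difference was 0.21 (SE 0.06, 95% interval 0.09 to 0.33), 1.15-fold, with an adjusted p of 0.041. This gene lies at chr11:119343425-119355536 (ENSMUSG00000005043), overlaps Card14 on the opposite strand, and carries the CACGTG stretch shown above. The call was kept without B6 WT replicate 3 (adjusted p = 0.0369) and lost without any of the other 5 libraries: B6 WT replicates 1 and 2 and Mertk-/-V1 replicates 1, 2 and 3, with an adjusted p of 0.0538 to 0.176. With TMM scaling Sgsh differed by 0.18 and was not called (adjusted p = 0.0642). Over the 50 genes 1 call (2%) compared with 7.07% of all genes.

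The members next in size in Mertk-/-V1 BMDMs did not pass. Ids, the iduronate sulfatase, was at 1325, 1483 and 1570 in B6 WT and 1670, 1687 and 1790 in Mertk-/-V1, a log2 difference of 0.24 (SE 0.07, adjusted p = 0.0691). Psap was at 103605, 101512 and 109388 and then at 123188, 118750 and 124771, a difference of 0.22 (SE 0.08, adjusted p = 0.0965). Both of these genes had every knockout library above every B6 WT library. Galns, the sulfatase of keratan sulfate, was at 2018, 2075 and 1826 and then at 1657, 1777 and 1626, a difference of −0.22 (SE 0.08, adjusted p = 0.112). Ctsk, near the bottom of the range in these cells, was at 14.0, 17.1 and 13.7 and then at 19.96, 24.0 and 18, a difference of 0.44 (SE 0.28, adjusted p = 0.376).

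Mertk-/-V2 BMDMs had 2 calls among the 50 genes, against 4.61% of all genes: Sgsh rose again and Pla2g15 fell. Sgsh was at 1898, 2116 and 1932 normalized counts, all above B6 WT, a log2 difference of 0.30 (95% interval 0.18 to 0.42), 1.23-fold, with an adjusted p of 0.011. That call was lost without B6 WT replicate 2 (adjusted p = 0.0621) and kept without any of the other 5 libraries. Pla2g15, the lysosomal phospholipase, was at 2835, 3066 and 3043 in B6 WT and at 2798, 2509 and 2215 in Mertk-/-V2, with all 3 knockout libraries lower. Its difference was −0.26 (SE 0.07, 95% interval −0.40 to −0.11), to 0.838 of the B6 WT level, with an adjusted p of 0.0484. The Pla2g15 call was kept without Mertk-/-V2 replicate 1 (adjusted p = 0.00919) and lost without B6 WT replicates 1, 2 or 3 or Mertk-/-V2 replicates 2 or 3 (adjusted p = 0.0661 to 0.168), and it was lost with edgeR (adjusted p = 0.0542). The gene lies at chr8:106150399-106164715 (ENSMUSG00000031903).

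Among the uncalled members, the cysteine protease Ctsl was at 21628, 22827 and 20574 in B6 WT BMDMs and at 18403, 18905 and 18670 in Mertk-/-V2, a log2 difference of −0.21 (SE 0.06, adjusted p = 0.0517). Acp5 was at 17.3, 22.0 and 15.6 and at 30.3, 21.2 and 25.6, a difference of 0.47 (SE 0.25, adjusted p = 0.314), with overlap. Ctsk was at 23.0, 18.2 and 18, all above B6 WT, a difference of 0.38 (adjusted p = 0.469). Mertk-/-V2 replicate 3 was the lowest library of its group for 35 of the 50 genes. Without it all-gene calls rose from 618 to 1168 and 8 members were called in this comparison: Ctsa, Ctsl, Galns, Lamp1, Lipa, Mcoln1, Psap and Sgsh. Pla2g15 was not among them.

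Mertk-/-V3 BMDMs had 1 call, against 1.17% of all genes. Mcoln1, the lysosomal cation channel TRPML1 through which calcium leaves the organelle, was at 1221, 1168 and 1309 normalized counts in B6 WT and at 1455, 1465 and 1502 in Mertk-/-V3, without overlap. The log2 difference was 0.26 (SE 0.06, 95% interval 0.14 to 0.38), 1.20-fold, with an adjusted p of 0.0429. This call was kept without B6 WT replicate 3 (adjusted p = 0.0257) and lost without B6 WT replicates 1 or 2 or Mertk-/-V3 replicates 1, 2 or 3 (adjusted p = 0.134 to 0.213). Mcoln1 lies at chr8:3500457-3515232 (ENSMUSG00000004567) and its CACGTG stretch is shown above. In Mertk-/-V1 BMDMs it was at 1430, 1295 and 1424 (log2 difference 0.17, adjusted p = 0.0904), and in Mertk-/-V2 at 1402, 1482 and 1347 (0.19, adjusted p = 0.0645).

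Most of the lysosomal genes lay slightly above B6 WT in Mertk-/-V3 BMDMs. The median log2 difference was 0.08 with 11 of 50 below 0, and by role it was 0.04 for proteases (5 of 12 below 0), 0.09 for glycosidases (2 of 11), 0.09 for sulfatases (1 of 5), 0.07 for lipid genes (1 of 9) and 0.10 for membrane proteins (1 of 9). At an unadjusted p under 0.05 there were 15 members (30%), where all genes gave 15.9%. Fuca1, the fucosidase, was at 3376, 3500 and 3435 in B6 WT and at 3809, 3824 and 3789 in Mertk-/-V3, a difference of 0.15 (adjusted p = 0.0526). Idua, the iduronidase, was at 1115, 1117 and 1201 and at 1321, 1309 and 1355, a difference of 0.22 (adjusted p = 0.0637). Gaa, the glycogen-degrading glucosidase, differed by 0.16 (adjusted p = 0.0947), and Ctsa, the protective protein that stabilises sialidase and galactosidase, by 0.18 (adjusted p = 0.122).

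Lgmn, the asparaginyl endopeptidase that processes other cathepsins, was at 25669, 26378 and 28893 in B6 WT BMDMs and at 32214, 31865 and 31795 in Mertk-/-V3, a difference of 0.25 (SE 0.10, adjusted p = 0.268). Some members went the other way without passing. Ctsk was at 7.65, 7.46 and 12.1, a log2 difference of −0.69 (SE 0.28, adjusted p = 0.25), and Acp5 at 12.02, 12.8 and 15.3, a difference of −0.42 (adjusted p = 0.455). Ctsh differed by −0.22 (SE 0.12, adjusted p = 0.398), from 826 ± 105 to 705 ± 41.8 (SD, n = 3 each).

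**Figure D5:**
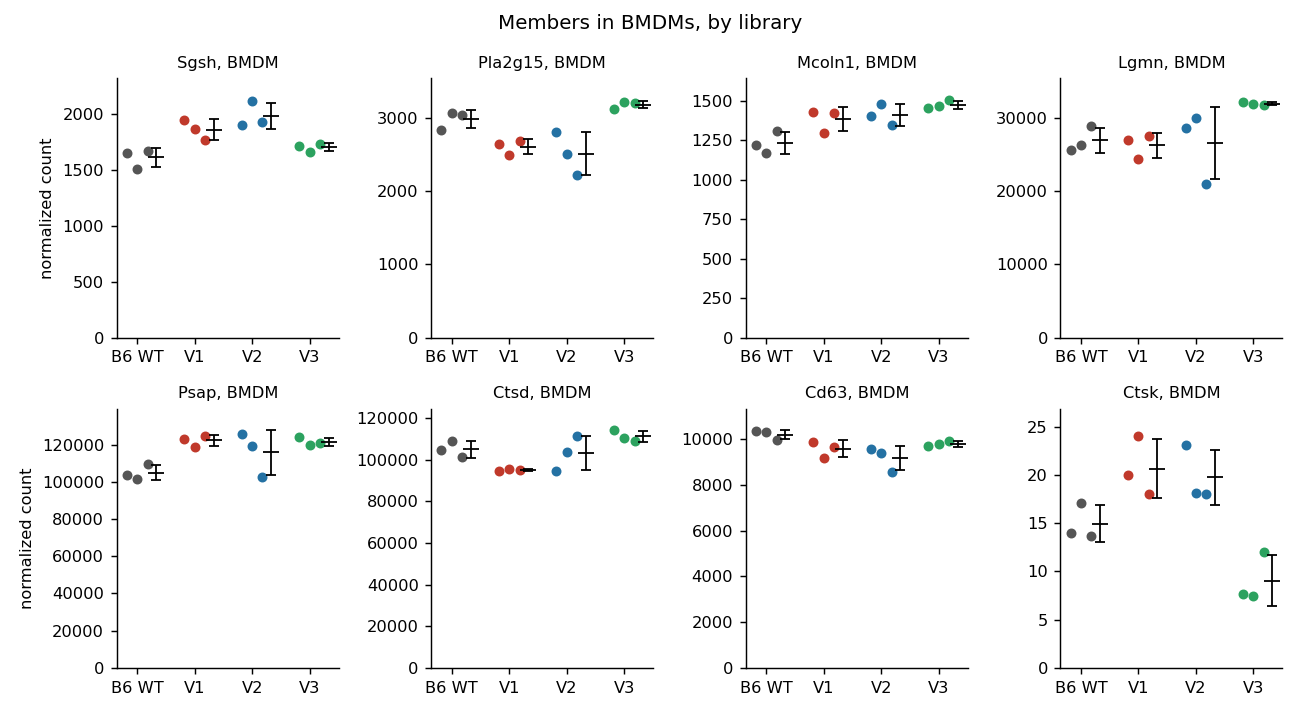
Normalized counts per library (y axis of each panel, points) with the mean and 1 SD in BMDMs of B6 WT and of the V1, V2 and V3 knockouts (n = 3 each) for Sgsh, Pla2g15, Mcoln1, Lgmn, Psap, Ctsd, Cd63 and Ctsk. Sgsh points of Mertk-/-V1 and Mertk-/-V2 and Mcoln1 points of Mertk-/-V3 lie above all B6 WT points, and Lgmn and Psap in Mertk-/-V2 show a low replicate 3.

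Set against the mean of the other knockouts, Mertk-/-V1 BMDMs had 0 calls among the 50 genes by limma (6 at an unadjusted p under 0.05, 0 by edgeR and 1 by DESeq2), against 0.991% of all genes. The median log2 difference was −0.03 with 34 below 0. Ctsd was at 94491, 95391 and 95052 in Mertk-/-V1, at 94796, 103680 and 111231 in Mertk-/-V2 and at 114345, 110260 and 109156 in Mertk-/-V3, a difference of −0.17 (SE 0.06, adjusted p = 0.281). Grn differed by −0.15 (adjusted p = 0.313), from 75752 ± 4508 in the other knockouts to 68412 ± 1931. Arsb, the arylsulfatase of dermatan sulfate, differed by −0.29 (adjusted p = 0.304), Ctsk by 0.59 (SE 0.24, adjusted p = 0.367) and Lgmn by −0.14 (adjusted p = 0.571).

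Counting members whose libraries did not overlap with B6 WT at all needs no fitted test but still depends on how the libraries were scaled. In RPE these were 2 members in Mertk-/-V1, Laptm5 and Ctss (background 1.09% of all genes), 7 in Mertk-/-V2, namely Galns, Ctsl, Hexa, Cd63, Gusb, Ctsk and Ctss (background 5.66%), and again Laptm5 and Ctss in Mertk-/-V3 (background 4.32%). All of them were higher in the knockout. In BMDMs 7 were higher and 9 lower in Mertk-/-V1 (background in either direction 30.9%), 3 higher and 4 lower in Mertk-/-V2 (background 22.7%), and 22 higher and 6 lower in Mertk-/-V3 (background 25.4%). The 22 higher members in Mertk-/-V3 make 44% of the 50, where 12.2% of all genes were higher without overlap. With TMM scaling of the reads their number was 18, where 9.48% of all genes were higher. TMM gave 4 higher and 12 lower in Mertk-/-V1 BMDMs (12.2% and 19.9% of all genes). It gave 3 higher and 6 lower in Mertk-/-V2 BMDMs (7.59% and 16.0%) and 5 higher in Mertk-/-V2 RPE (3.23%). Cd63 was lower in all 3 BMDM comparisons, with 10332, 10298 and 9967 in B6 WT and no knockout library above 9912.

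Whether an effect differed between the tissues was tested as an interaction over all 30 libraries with edgeR's quasi-likelihood test. For Mertk-/-V1, Ctss and Laptm5 passed, against 0.158% of all genes called. The effect in RPE exceeded that in BMDMs by 1.35 on the log2 scale for Ctss (adjusted p = 0.0269) and by 0.99 for Laptm5 (adjusted p = 0.0383). In BMDMs Ctss was at 16052, 16572 and 14234 in B6 WT and at 12905, 13806 and 13891 in Mertk-/-V1 (limma log2 difference −0.20, adjusted p = 0.128), and Laptm5 was at 34323, 34508 and 36342 and at 36732, 33527 and 35566 (0.01). In BMDMs every Mertk-/-V1 value of Ctss lay below every B6 WT value without a call, whereas the Laptm5 ranges overlapped.

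These interaction calls were sensitive to single libraries. The adjusted p of Ctss reached 0.0524 without B6 WT RPE replicate 2 and 0.0715 to 0.105 without B6 WT BMDM replicates 1 or 2 or Mertk-/-V1 BMDM replicates 1, 2 or 3. That of Laptm5 reached 0.058 to 0.0712 without B6 WT RPE replicates 1, 3, 5 or 6 or Mertk-/-V1 RPE replicate 4, and 0.084 to 0.133 without any of the 3 B6 WT or 3 Mertk-/-V1 BMDM libraries. Without the 3 RPE libraries of low RPE marker counts the effects were 1.12 (adjusted p = 0.00723) and 0.90 (adjusted p = 0.0257). The macrophage markers C1qa, C1qb, C1qc and Fcer1g were called in the same interaction, with 1.49, 1.22, 1.36 and 1.13. Part of this was on the BMDM side, where C1qa was called lower in Mertk-/-V1 by limma (−0.39, adjusted p = 0.00115). C1qb, C1qc and Fcer1g lay at −0.14, −0.16 and −0.12 there without a call.

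For Mertk-/-V2 no member passed the interaction in edgeR (3 at an unadjusted p under 0.05), against 0.0431% of all genes called, and for Mertk-/-V3 none passed (3 at an unadjusted p under 0.05), against 0.0192%. DESeq2 called none of the 50 in either. The members' median interaction effects were −0.16, 0.07 and −0.14 for the 3 alleles, and without the 3 RPE libraries of low RPE marker counts they were 0.02 for Mertk-/-V1 and −0.03 for Mertk-/-V3.

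Lamp1, a widely used lysosomal marker, Ctsd and Tfeb did not pass in any comparison with B6 WT by limma as described. Lamp1 and Ctsd passed in Mertk-/-V3 RPE with the replicate block or array weights, Ctsd in Mertk-/-V1 BMDMs with array weights, and Lamp1 in Mertk-/-V2 BMDMs without replicate 3. Lamp1 in RPE was at 8091 ± 790 in B6 WT and at 7774 ± 1016, 7968 ± 334 and 6855 ± 914 in the V1, V2 and V3 knockouts, with log2 differences of −0.06, −0.02 and −0.24 (adjusted p = 0.912, 0.999 and 0.453). In BMDMs it was at 32589 ± 967, 33558 ± 848, 34305 ± 3581 and 34975 ± 506, with differences of 0.04, 0.07 and 0.10. Tfeb was at 614 ± 45.1, 560 ± 126, 635 ± 56.6 and 635 ± 83.5 in RPE and at 601 ± 34.1, 627 ± 54.3, 618 ± 16.7 and 652 ± 11 in BMDMs. Ctsd differed by −0.42, −0.03 and −0.45 in RPE and by −0.14, −0.03 and 0.08 in BMDMs. The 11 members with GTCACGTG in the promoter had median differences of −0.11 in Mertk-/-V1 RPE and of 0.07, 0.07 and 0.13 in the 3 knockout BMDM groups, and the 34 without it had −0.16, 0.01, −0.01 and 0.05. In Mertk-/-V2 and Mertk-/-V3 RPE the order was the other way, with 0.01 and −0.09 for those with the motif and 0.10 and −0.08 for those without, and so it was in Mertk-/-V1 RPE without the 3 libraries of low RPE marker counts (−0.06 against 0.00).

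Lysosomal genes outside the 50 were measured as 6 further lists: the proton pump (v-ATPase), other hydrolases, mannose 6-phosphate sorting, transporters, regulators and cystatin-type inhibitors. By limma, none of the sorting genes and none of the inhibitors was called in any of these comparisons within a tissue. The inhibitors include Cst7, which the paper, with DESeq2, lists as differentially expressed in RPE between Mertk-/-V1 and the other knockouts. In Mertk-/-V1 RPE the single call was Slc15a3, an endolysosomal peptide transporter of immune cells, which rose from 30.5 to 40.8 normalized counts in B6 WT to 48.9 to 123 (log2 difference 1.19, adjusted p = 0.019). In Mertk-/-V2 RPE the single call was Zkscan3, a repressor of autophagy and lysosome genes, which rose from 1906 to 2053 in B6 WT to 3813, 3892 and 3137 (0.85, adjusted p = 0.00583). Mertk-/-V3 RPE had none.

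In BMDMs the proton pump subunit Tcirg1 and the hyaluronidase Hyal1 were called higher in all 3 knockouts. Tcirg1 was at 7537, 8157 and 8771 in B6 WT, at 11453, 11000 and 10986 in Mertk-/-V1, at 10546, 10521 and 10718 in Mertk-/-V2 and at 9385, 9493 and 10278 in Mertk-/-V3, with log2 differences of 0.45, 0.38 and 0.25 (adjusted p = 0.000263, 0.00161 and 0.0373). Hyal1 was at 229, 245 and 246 in B6 WT and between 322 and 381 in the 9 knockout libraries, with differences of 0.55, 0.55 and 0.50. The 3 comparisons share the B6 WT libraries. Of 18 v-ATPase genes, 2 rose in Mertk-/-V1 (Tcirg1 and Atp6v0d2), 1 in Mertk-/-V2 and 2 in Mertk-/-V3, and none fell, beside 7.07%, 4.61% and 1.17% of all genes called. Atp6v0d2, another membrane subunit of the pump, was at 196, 209 and 292 in B6 WT and at 411, 385 and 565 in Mertk-/-V1 (0.96, adjusted p = 0.0264).

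Among the 24 other hydrolases tested, Hyal1 was the single call in Mertk-/-V1 BMDMs, Aga, the aspartylglucosaminidase, fell in Mertk-/-V2 (−0.52, adjusted p = 0.00144), and Ctse, an endosomal aspartic protease, rose in Mertk-/-V3 (1.19, adjusted p = 0.0182). Of the 21 transporters and other membrane proteins, Clcn7, the chloride-proton exchanger of lysosomes, rose by 0.33 in Mertk-/-V1 (adjusted p = 0.0113), Slc29a3, a nucleoside transporter, by 0.21, and Tpcn2, an endolysosomal cation channel, by 0.18, whereas the tetraspanin Cd81 fell in all 3 knockouts (−0.20, −0.20 and −0.27). The Ragulator subunits Lamtor2 and Lamtor4, which tie nutrient signalling to the lysosome, fell by 0.21 and 0.23 in Mertk-/-V1. In Mertk-/-V2 Lamtor2 fell too (−0.19, adjusted p = 0.0249), Tpcn2 rose (0.22, adjusted p = 0.0201), and Fnip2, a folliculin partner, rose by 0.28.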

How the data were processed

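Per the labels and the study's methods, polyA RNA was extracted with RNeasy kits and sequenced as 150 bp paired-end reads on a NovaSeq instrument. The authors used btrim for trimming and STAR for alignment to GRCm38, and divided gene counts by a DESeq2 size factor per library, separately for RPE and BMDMs; the versions, counting tool, strand setting and annotation are not given in the sources used here. The deposited signal is therefore a normalized count, in 30 library columns, with 0 columns left unused. Dividing by each library's step, its smallest value above 0, gave whole reads for 100% of values (tolerance 0.01), so depth was known, and read floors cover counting error only. Symbols and positions came from GENCODE M21, which matched 55394 identifiers and missed 179, and promoters from RefSeq GRCm38.p6. No 2 libraries of a group agreed within sampling noise.

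In R 4.3.3, limma 3.58.1 (trend, log2(value + 1), mean of at least 10) was fitted to all libraries of a tissue, with Benjamini-Hochberg adjustment over all genes tested. The fold changes are on that log2(value + 1) scale and understate changes of low genes. Recovered reads were tested with edgeR 4.0.16, which also gave the tissue interaction after filterByExpr, and with DESeq2 1.42.0, which on RPE called 202 genes in Mertk-/-V1 where limma called 73. RPKM used TMM over all libraries. Scripts were tested on simulated data. The members and lists were chosen with earlier results of these data known. Genes named were those called, the 5 members with the largest differences in each comparison, Lamp1, Ctsd and Tfeb, and the called genes of each list; Fuca1, Idua, Gaa and Ctsa in BMDMs were chosen after their values were seen.

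In RPE, same-numbered B6 WT and Mertk-/-V1 libraries deviated together in all 6 pairs (r = 0.119 to 0.724 across genes, which are not independent replicates). Only 1 of the 6 B6 WT libraries, however, had its highest r with the Mertk-/-V1 library of its own number. B6 WT replicate 1, for example, gave 0.612 with Mertk-/-V1 replicate 1 and 0.665 with replicate 3. The numbers therefore do not establish pairs, and the replicate block is given only as a variant. With the replicate block Ctss (adjusted p = 0.009013) and Laptm5 (adjusted p = 0.002643) were again the 2 called members.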

Additional observations from a re-analysis of the deposited data

Results flagged for a closer look

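Ctss was at 481 normalized counts in B6 WT RPE replicate 4, apart from the other 5 libraries of its group (330 to 370). In Mertk-/-V1 RPE replicate 6, which has low RPE marker counts, Ctss was at 1379, apart from the other 5 (513 to 820). Ctsz, a carboxypeptidase among the cathepsins, was at 1638 in B6 WT RPE replicate 5, below the other 5 (2056 to 2268). By Dixon's test these were 3 of 100 groups of 6 libraries tested, and chance gives about 5 (1 in 20).

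The Mertk-/-V1 effect differed between tissues for Ctss, by 1.35 on the log2 scale (RPE minus BMDM, adjusted p = 0.0269 by edgeR), and for Laptm5, by 0.99 (adjusted p = 0.0383). Both were higher in 6 of 6 Mertk-/-V1 RPE libraries than in any B6 WT RPE library.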

How the results depend on the processing

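The numbers below are members called, of 50. In RPE, Mertk-/-V1 (2) gave 0 with replicates 1 to 3 alone, 0 with replicates 4 to 6 alone and 0 with the fold threshold; Mertk-/-V2 (0) gave 3 with array weights, Mertk-/-V3 (0) gave 34, and Mertk-/-V1 against the other knockouts (0) gave 9, settings under which all-gene calls rose to 861, 12592 and 5444; a fit of these weights stopped before it converged. In BMDMs, Mertk-/-V1 (1) gave 0 without the filter, 6 with only the groups compared, 2 with TMM (Ctsl and Manba, not Sgsh), 4 with DESeq2, 12 with array weights and 0 with the fold threshold. Mertk-/-V2 (2) gave 1, 0, 4, 5, 6 and 0 in the same order and 1 with edgeR, and Mertk-/-V3 (1) gave 0 without the filter, 7 with only the groups compared, 2 with edgeR, 6 with DESeq2, 14 with array weights and 0 with the fold threshold. Mertk-/-V1 against the other knockouts (0) gave 1 with DESeq2. Leaving out 1 BMDM library gave 0 to 4, 0 to 8, 0 to 3 and 0 to 2 in these 4 comparisons. The Mertk-/-V1 interaction (2) gave 1 with RPE replicates 1 to 3 alone and 0 to 2 without 1 library, and that of Mertk-/-V3 (0) gave 3 with replicates 1 to 3 alone. The cause of these differences was not tested. Acp5 in Mertk-/-V2 RPE turned to 0.24 against B6 WT replicates 4 to 6. Of the values of single named genes, 701 kept direction and side of the threshold, 35 newly passed, 48 no longer passed and 1 turned.

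All-gene counts moved by over 1.5 times as well. RPE calls in Mertk-/-V1 (73) became 28 with the fold threshold, 23 and 1 in the 2 replicate sets, 139 with the set as a term, 151 with array weights and 202 with DESeq2. BMDM calls (949, 618 and 157) became 1302, 69 and 558 with only the groups compared, 606, 353 and 107 without the filter, and 243 to 1200, 148 to 1168 and 33 to 249 without 1 library.

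With the replicate number as a block, Mertk-/-V3 RPE gave 12 members (5619 of all genes called) and Mertk-/-V1 against the other knockouts 2 (2329), while BMDM comparisons gave 0 (Mertk-/-V1), 1 (Mertk-/-V2) and 0 (Mertk-/-V3), and the Mertk-/-V3 interaction gave 3 (1376). Outside B6 WT and Mertk-/-V1 RPE, where the block changed no call of a member, same-numbered libraries did not deviate together (r = −0.462 to 0.592 in RPE and −0.303 to 0.363 in BMDMs), so there the libraries share only a number. Between B6 WT and Mertk-/-V1 RPE, pairs by number were not established either, since only 1 of 6 B6 WT libraries matched best with its own number.

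Depth set no limit for these genes except Ctsk and Acp5 in BMDMs, at 7.46 to 30.3 normalized counts where 3 reads are up to 3.64.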
